A study of Mus musculus with 17 samples.

Results

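The loci described here are those of 9 immediate-early genes, Egr1, Egr2, Egr3, Klf2, Klf4, Klf6, Klf7, Ier2 and Ier3, read from ATAC-seq peak lists of bone marrow-derived macrophages (BMDMs). ATAC-seq marks open chromatin, since the Tn5 transposase cuts DNA that is not packed around nucleosomes. Every deposited peak within 20 kb of a gene body was taken (mm10, GENCODE M21), which gave 934 of 808470 peaks. Those overlapping a tested site made up 37 of the 34155 sites found in the lists as a whole. These were 9 promoter sites, 1 for each gene, 5 promoters of neighboring genes and 23 distal sites. The remaining peaks lay in 46 weaker elements that were not tested. A site is a promoter when it lies within 1 kb of a start of a protein-coding transcript.

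Immediate-early genes are transcribed within minutes of a signal, without new protein synthesis. Egr1, Egr2 and Egr3 encode zinc-finger activators that bind GC-rich sites, and serum response factor (SRF), bound to the CArG box, is their classical switch. The Klf genes encode related zinc-finger proteins: Klf2 and Klf4 are known for restraining inflammatory activation of myeloid and endothelial cells, Klf6 for inflammatory activation of macrophages, and Klf7 chiefly for neuronal development. Ier2 and Ier3 encode small nuclear or membrane-associated proteins, and Ier3 is a known target of NF-kB. Lipopolysaccharide (LPS) from Gram-negative bacteria drives such genes in macrophages through Toll-like receptor 4.

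The macrophages were grown for 7 days in L929-conditioned medium from bone marrow of male mice aged 6 to 12 weeks. They came from wild-type (WT) littermates or from whole-body Nur77-knockout (KO) mice, which lack the nuclear receptor Nr4a1 and carry the genotype label cre. KO mice had been made by crossing C57Bl6/J mice with CMV-promoter Cre to mice with a loxP-flanked Nr4a1 locus, and the Cre was then bred out. Cells of both genotypes were left untreated (0 h) or given LPS at 100 ng/ml for 1 h or 18 h. Each of the 6 groups holds 3 peak lists, except WT at 1 h, which holds 2, named replicate 1-2 and replicate 3. The labels do not say that replicates came from separate mice, so p-values measure the spread between these lists, which may be technical.

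The 17 lists hold 24389 to 71456 peaks each, and the read background behind them ranged from 0.382 to 9.75 reads per kb. The 5 lists at 1 h lay between 0.382 and 4.14 reads per kb, the 6 untreated lists between 0.720 and 9.75, and the 3 KO lists at 18 h between 1.10 and 1.76 against 4.62 to 8.38 in WT. KO 18 h replicate 1 stood apart, with a median peak width of 135 bp against 338 to 661 bp elsewhere. All 7 macrophage marker promoters (Csf1r, Adgre1, Cd68, Itgam, Spi1, Mertk and Fcgr1) had a peak in at least 15 lists. None of the 8 B, T and NK cell promoters had one, nor did Mpo, Prtn3, Pdgfra and Epcam, whereas Elane and Col1a1 had one in 14 lists. Peaks lay over the Nr4a1 gene body in all 8 WT lists and in 8 of 9 KO lists, at best ranks of 3594.5 to 12154.5 and 6613 to 23854.5. Which part of Nr4a1 is deleted is not given in the sources used here, so these peaks check no genotype label.

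Stretches of 300 bp around summits, the points of highest signal, are shown because changes described below lie there (GRCm38, plus strand). The site at -16.6 kb from the Egr3 gene start, chr14:70060437-70060736, was called between genotypes. That call was lost under 6 of 9 alternatives, and also where sites of a single list were kept. The Ier3 -8.3 kb site is chr17:35813268-35813567, and the site just past the 3′ end of Klf6, at +9.2 kb, is chr13:5870535-5870834. Capitals mark an AP-1 motif followed by an NF-kB motif in the Ier3 site. The Egr3 and Klf6 stretches hold none of the 8 motifs searched.
Egr3 -16.6 kb: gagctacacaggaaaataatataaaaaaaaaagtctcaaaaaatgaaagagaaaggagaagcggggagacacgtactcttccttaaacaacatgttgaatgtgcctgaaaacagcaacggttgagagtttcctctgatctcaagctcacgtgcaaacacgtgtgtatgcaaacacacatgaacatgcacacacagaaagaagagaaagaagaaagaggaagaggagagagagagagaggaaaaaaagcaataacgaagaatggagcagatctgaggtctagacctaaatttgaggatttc
Ier3 -8.3 kb: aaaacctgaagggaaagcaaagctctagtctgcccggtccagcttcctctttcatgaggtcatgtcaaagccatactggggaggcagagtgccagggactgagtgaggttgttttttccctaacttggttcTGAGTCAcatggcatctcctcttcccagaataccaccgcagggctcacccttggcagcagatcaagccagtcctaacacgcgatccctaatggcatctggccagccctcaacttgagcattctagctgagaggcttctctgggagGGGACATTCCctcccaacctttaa
Klf6 +9.2 kb: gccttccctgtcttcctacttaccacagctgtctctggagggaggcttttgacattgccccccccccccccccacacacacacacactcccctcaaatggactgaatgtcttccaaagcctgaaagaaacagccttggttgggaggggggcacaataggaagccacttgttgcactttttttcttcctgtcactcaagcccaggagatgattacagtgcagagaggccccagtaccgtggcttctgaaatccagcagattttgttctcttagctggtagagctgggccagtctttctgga

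The CArG box was found by name on both strands in 6 of the 64 summit windows near the 9 genes (9.38%) and in 1.49% of the 37708 windows of the same 300 bp over all lists. The 6 windows are not all shown. Boxes at the main Egr2 promoter summit, the Egr3 -2.3 kb summit and a Klf6 intragenic summit at +2.3 kb are shown because the letters differ between these genes. In the lines below, the box stands in capitals with 10 bases on each side, all on the plus strand: Egr2 promoter chr10:67537787-67537816, Egr3 -2.3 kb chr14:70074861-70074890 and Klf6 chr13:5863680-5863709.
Egr2 promoter: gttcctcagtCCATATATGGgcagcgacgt
Egr3 -2.3 kb: ctgtgcggttCCTTTAAAGGctgcgggttc
Klf6 +2.3 kb: tgagccgggtCCTTATTTGGctgcaggtca

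The Ier2 and Ier3 promoters carried other motifs. The 300-bp Ier2 promoter window held a cAMP response element (CRE, TGACGTCA, in 1.54% of all windows), 42 bp before the gene start at chr8:84662880-84662907 (minus strand, as is the gene). The Ier3 promoter window held an NF-kB motif 58 bp before the start, at chr17:35821611-35821640 (plus strand). NF-kB motifs stood in 7 of the 64 windows (10.9%, against 6.84% of all), and the AP-1 motif TGANTCA in 10 (against 21.8%). No window of the 9 genes held the Nur77 response element AAAGGTCA, which 1.49% of all windows held. A match describes letters and is not evidence of binding.
Ier2 promoter CRE: ggtgttgcagTGACGTCActctcagtat
Ier3 promoter NF-kB: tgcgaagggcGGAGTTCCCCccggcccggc

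Accessibility was compared by rank, because scores of separately called lists scale with depth. Peaks were ordered inside each list by the deposited −log10 p, so that rank 1 is the strongest peak and tied peaks share a mean rank. A site took the best rank of any peak over it, ranks past 24389 (the length of the shortest list) counted as 24389, and so did absent peaks. Differences are on the log2 scale of rank, signed so that a positive value means nearer the top of the list and a difference of 1 a rank changed by a factor of 2. They were tested with limma over all 34155 sites, and a site was called at an adjusted p under 0.05. Responses to LPS were averaged over the genotypes (6 lists at 0 h, 5 at 1 h, 6 at 18 h).

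At 1 h of LPS, 13 of the 37 sites were called, 9 nearer the top of the lists and 4 lower, where 28.2% of all sites were called (13.8% higher, 14.3% lower). The share among the 37 sites was thus near that of the genome. A site was tested if at least 2 lists held it in their top 24389, and 4 of the 9 higher sites met that minimum only through lists at 1 h, as did 1279 of the 4722 higher over all sites. Such a site had to differ at 1 h, so the values of those 4 are given below as a description with no test. Of the 31 sites near the 9 genes that met the minimum at the other times, 5 (16.1%) were called higher, against 11.1% over all such sites. At 18 h, 2 of 37 were called, both lower, against 23.7% of all sites (10.9% higher, 12.8% lower). Without KO 18 h replicate 1 these counts were 16 and 3, where 34.2% and 27.4% of all sites were called. The 1 h lists were on the whole shallower than the untreated ones, with overlap, so the 1 h fit was repeated with depth as a covariate. That fit called 8 sites, 7 higher and 1 lower, where 9.90% and 6.83% of all sites were. Of those 7, 5 were kept only through 1 h lists, and the other two were the Ier2 promoter and the Ier3 -8.3 kb site. Ranks taken relative to list length, which shift the median of all sites by -0.54, called 3 of the 37 higher and 7 lower (2650 and 10621 of all sites, against 4722 and 4895). Those 3 were among the 4 sites kept only through 1 h lists, and none of the other 5 higher sites was called with relative ranks. With a cap of 10000 none was called, where 715 of the 34155 sites over all were called higher and 221 lower.

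The promoters of Ier2 and Ier3 moved up at 1 h and that of Klf7 moved down, while those of Egr1, Egr2, Egr3, Klf2, Klf4 and Klf6 did not pass the test. Among promoter sites of all genes, 5.85% were called higher and 17.8% lower at 1 h. At the Ier2 promoter (chr8:84658877-84666241), ranks were 3113, 3503 and 3462 in WT and 4046, 3933.5 and 2849 in KO untreated lists. They were 1894.5 and 1634.5 in WT and 1239.5, 2182.5 and 1814.5 in KO lists at 1 h, and 4854.5, 4549 and 3420 in WT and 5345.5, 4500.5 and 3489 in KO lists at 18 h. All 1 h lists stood above all others. The difference was 1.00 (SE 0.24, adjusted p = 0.0046) at 1 h and -0.31 (95% interval -0.79 to 0.16, adjusted p = 0.35) at 18 h.

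Ier3, whose product is linked to survival of activated cells, followed at its promoter site (chr17:35820621-35825320, which also covers the start of the neighboring Flot1). Untreated ranks were 5654, 6030.5 and 5255 in WT and 6411, 6392.5 and 4206 in KO. At 1 h they were 3059 and 3428.5 in WT and 3116.5, 2993.5 and 3047 in KO, which again did not overlap with the untreated lists. At 18 h they were 4320.5, 4956.5 and 3900 in WT and 2769.5, 4500.5 and 4714.5 in KO, a spread that overlapped with both other times. The difference was 0.83 (SE 0.22, adjusted p = 0.0085) at 1 h and 0.44 (0.01 to 0.88, adjusted p = 0.13) at 18 h. With depth as a covariate the Ier3 value at 1 h was 0.69 (adjusted p = 0.11), while Ier2 stayed at 1.06 (adjusted p = 0.027). Blocking on replicate number gave Ier3 an adjusted p of 0.056. Where a peak had to cover 50% of these broad sites, the 1 h values were -0.96 at Ier2 and -0.38 at Ier3, neither called, and relative ranks gave 0.58 (adjusted p = 0.28) and 0.41 (adjusted p = 0.42).

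The Klf7 promoter (chr1:64120461-64122919) was among the strongest peaks of untreated cells and fell at both times. Its ranks were 470, 656.5 and 210 in WT and 246.5, 615.5 and 594 in KO untreated lists. They were 708.5 and 1258 in WT and 738.5, 1786 and 1076.5 in KO lists at 1 h, then 581.5, 928 and 1776.5 in WT and 2311, 2029 and 2568 in KO lists at 18 h. The 1 h lists all lay below the untreated ones, and at 18 h only WT replicate 1 reached their range. The difference was -1.28 (SE 0.42, adjusted p = 0.031) at 1 h and -1.82 (SE 0.40, adjusted p = 0.0027) at 18 h, the only promoter called at 18 h, where 5.02% of all promoter sites were called higher and 12.9% lower. Without KO 18 h replicate 1 the 18 h value was -1.82 (adjusted p = 0.0031). With depth as a covariate, Klf7 was -0.64 (adjusted p = 0.45) at 1 h and -1.72 (adjusted p = 0.0028) at 18 h. The Klf7 call at 1 h was also lost with array weights (adjusted p = 0.091), with the replicate number as a block (adjusted p = 0.051) and in an exact permutation test (adjusted p = 0.060), which lost the 18 h call too (adjusted p = 0.056). At 1 h it was lost as well when any 1 of 4 lists was left out (WT 0 h replicate 3, WT 1 h replicate 3, KO 0 h replicate 1 or KO 1 h replicate 2).

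**Figure D1:**
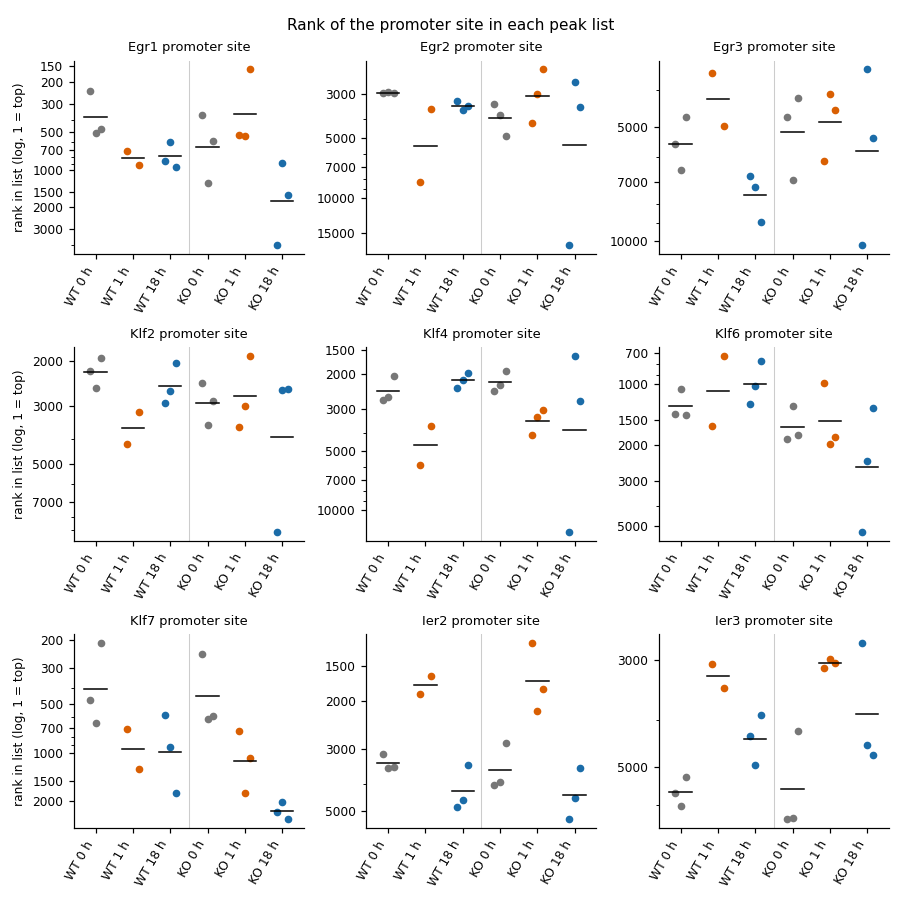
Rank of the promoter site of each of the 9 genes in every list (log axis, rank 1 at the top), by genotype and hours of LPS, with 1 point per list. Ier2 and Ier3 points at 1 h stand above the untreated ones, Klf7 points stand below them, and KO 18 h replicate 1 lies lowest at 18 h in 7 of the 9, all but Klf7 and Ier3.

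The Egr1 promoter (chr18:34859508-34866653), the strongest of the 9 by its geometric mean rank of 677, had untreated ranks of 237.5, 507 and 472 in WT and 369, 1283.5 and 594 in KO. At 1 h they were 708.5 and 927.5 in WT but 534.5, 544.5 and 159 in KO, and at 18 h 848, 600.5 and 950 in WT and 4006, 882.5 and 1580 in KO. The groups overlapped at 1 h, with a difference of -0.10 (-1.12 to 0.91, adjusted p = 0.95), and the 18 h difference of -1.23 (-2.19 to -0.28) had an adjusted p of 0.057, or was -0.94 (adjusted p = 0.11) without KO 18 h replicate 1. The Egr2 promoter differed by -0.25 (-1.09 to 0.58) at 1 h and -0.33 (-1.12 to 0.46) at 18 h. The whole Egr3 promoter site (chr14:70074196-70078967) differed by 0.24 (-0.32 to 0.80) and -0.31 (-0.84 to 0.22). These intervals still allow rank changes by a factor of 2 for Egr1 and Egr2.

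Of the remaining Klf promoters, Klf2 differed by -0.31 (-1.0 to 0.37) at 1 h and -0.30 (-0.95 to 0.35) at 18 h. Klf6 (chr13:5859796-5872370, a single broad site over the whole gene) differed by 0.16 (-0.62 to 0.94) and -0.15 (-0.89 to 0.59). Klf4 ranks were 2721, 2615.5 and 2042 in WT and 2442, 2264.5 and 1925 in KO untreated lists, and 5848.5 and 3708 in WT and 4103, 3320.5 and 3047 in KO lists at 1 h. Every 1 h list was below every untreated list at Klf4. Its 1 h difference was -0.79 (SE 0.40, adjusted p = 0.15), and the same value was called without KO 18 h replicate 1 (SE 0.22, adjusted p = 0.010), a list with a Klf4 rank of 13081 where the other KO lists at 18 h had 1609 and 2733.

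Both of the distal sites called lower at 1 h lay upstream of Egr3. Over all genes, 17.6% of distal sites were called higher at 1 h and 12.7% lower. The intergenic -11.1 kb site was among the strongest peaks of untreated cells, at 781, 646 and 1015 in WT and 1052.5, 815 and 920 in KO. It was at 3059 and 3708 in WT and 1968, 2689 and 2909 in KO at 1 h, and at 2265.5, 1885 and 1820.5 in WT and 6567, 1609 and 1304.5 in KO at 18 h. No treated list reached the untreated range. The Egr3 -11.1 kb difference was -1.75 (SE 0.36, adjusted p = 0.0016) at 1 h and -1.34 (SE 0.34, adjusted p = 0.0084) at 18 h, or -0.98 (adjusted p = 0.0041) without KO 18 h replicate 1. Where a peak had to cover 50% of the site, neither call held (adjusted p = 0.11 and 0.15). At 18 h, 13.6% of all distal sites were called higher and 12.8% lower.

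The other lower site, at -20.0 kb from Egr3 in an intron of Pebp4 (chr14:70053696-70058176), ranked 715, 646 and 397.5 in WT and 363.5, 316 and 1925 in KO without LPS. At 1 h it ranked 6958.5 and 2764 in WT and 769.5, 2689 and 1348.5 in KO, which overlapped with the untreated KO lists. The value of 6958.5 came from another summit of this broad site, at -22836 bp. The Egr3 -20.0 kb difference was -2.08 (SE 0.52, adjusted p = 0.0059), or -1.75 (adjusted p = 0.047) without that list. The call was lost with depth as a covariate (-1.0, adjusted p = 0.23), with the replicate number as a block (adjusted p = 0.089) and in an exact permutation test (adjusted p = 0.079), and no difference was left where a peak had to cover 50% of the site (adjusted p = 1). At 18 h it was -1.29 (-2.32 to -0.27, adjusted p = 0.064).

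The distal sites called higher at 1 h numbered 6, and the 4 near Klf6, Klf7 and Ier2 are those that met the list minimum only through 1 h lists. The Klf6 -18.4 kb site (chr13:5842889-5843307, intergenic) was inside the top 24389 in all 5 lists at 1 h, at 14417.5 and 19688.5 in WT and 12902.5, 14876.5 and 14607.5 in KO. It had no peak in 10 of the other 12 lists, and its peaks in WT 0 h replicates 2 and 3 ranked 49651.5 and 60836. With all other lists at the cap, its difference was 0.66. The Klf7 intronic site at +3.3 kb (chr1:64117948-64120452) was likewise inside the top 24389 in those 5 lists, with 8262.5 and 11797 in WT and 20622, 22863 and 16571.5 in KO at 1 h. Its peaks in 7 of the other lists ranked from 36287.5 to 47785.5, and 5 KO lists had none. The Klf7 +3.3 kb difference was 0.80, again with the other 12 lists at the cap.

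Near Ier2, the +5.9 kb site (chr8:84656501-84657236, intergenic) ranked 17413.5 and 10330.5 in WT and 15041, 19586 and 10897 in KO at 1 h. Untreated ranks ran from 24921.5 to 35064.5, with no peak in KO replicate 2. At 18 h the WT lists ranked 21200, 31105.5 and 36287.5, the first of them inside the top 24389, and the 3 KO lists had no peak. The Ier2 +5.9 kb difference was 0.79, or 0.68 with relative ranks. At the Ier2 -18.3 kb site (chr8:84680991-84681325, in an intron of Nacc1), only 3 lists, all at 1 h, ranked inside the top 24389, and the difference was 0.30, or 0.20 with depth as a covariate.

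At Ier3, the -8.3 kb site with the AP-1 and NF-kB motifs (chr17:35812685-35814127, intergenic) ranked 3088, 2966 and 2742 in WT and 3251.5, 2096 and 2243 in KO without LPS. It rose to 1375.5 and 502.5 in WT and 753.5, 1279.5 and 1921.5 in KO at 1 h, all above the untreated lists. At 18 h it was at 3013.5, 2713.5 and 2430.5 in WT and 4006, 2196 and 1160.5 in KO. The Ier3 -8.3 kb difference was 1.42 (SE 0.36, adjusted p = 0.0073) at 1 h, with an adjusted p of 0.052 without WT 1 h replicate 3 0.076 with relative ranks and 0.19 with the 50% overlap, and 0.15 (-0.57 to 0.87, adjusted p = 0.82) at 18 h. The Ier3 -13.6 kb site (chr17:35807613-35808604) differed by 0.60 (SE 0.16, adjusted p = 0.0097) at 1 h, or 0.57 (adjusted p = 0.079) with depth as a covariate and 0.19 (adjusted p = 0.67) with relative ranks. It was no longer called without WT 1 h replicate 1-2 (adjusted p = 0.055), or with the 50% overlap, where the value was -0.045 (adjusted p = 0.90).

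Promoters of neighboring genes were called in 2 cases at 1 h. That of Ado, beside Egr2, fell by 1.42 (SE 0.40, adjusted p = 0.014), and that of Mdc1, beside Ier3, rose by 1.00 (SE 0.34, adjusted p = 0.037). The Ado value was -1.22 (adjusted p = 0.14) and the Mdc1 value 1.08 (adjusted p = 0.11) with depth as a covariate, and both were lost under the replicate block (adjusted p = 0.088 and 0.058). The Mdc1 call was also lost when any 1 of 7 lists was left out, and the Ado call without WT 1 h replicate 1-2. At Mdc1 the 50% overlap gave -0.66 (adjusted p = 0.79), relative ranks 0.58 (adjusted p = 0.43) and array weights 1.05 (adjusted p = 0.055). The best-ranked distal sites of the other genes did not pass at either time: they differed by -0.49 (-1.02 to 0.03) at Egr1 -3.4 kb, 0.09 (-0.53 to 0.71) at Klf2 +3.6 kb, -0.58 (-1.20 to 0.04) at Klf4 +17.5 kb and -0.06 (-0.37 to 0.25) at Klf6 -15.8 kb at 1 h. Egr2 had no distal site within 20 kb.

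**Figure D2:**
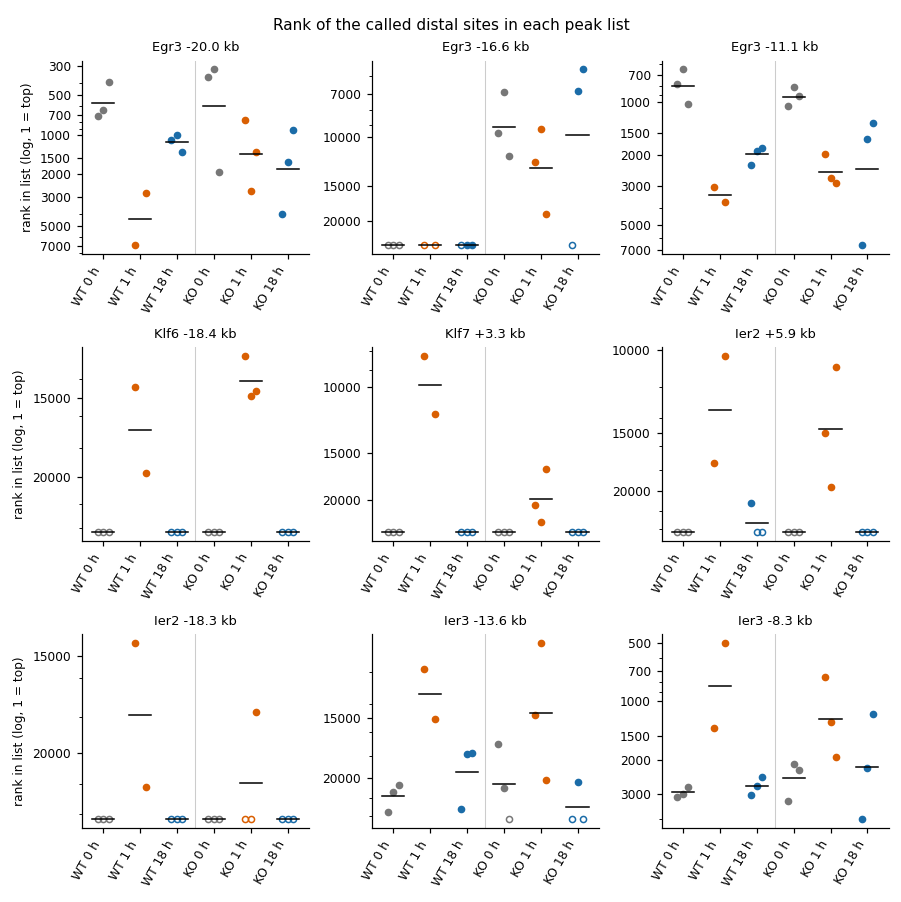
Rank in every list (log axis, rank 1 at the top) of the 9 distal sites called in any comparison, by genotype and hours of LPS, with open circles for lists at the cap of 24389. The Klf6, Klf7 and Ier2 sites were kept only through lists at 1 h, so they had to leave the cap there and have no test. The Egr3 -11.1 kb site falls at both times, and the Egr3 -16.6 kb site separates KO from WT lists apart from KO 18 h replicate 1.

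**Figure D3:**
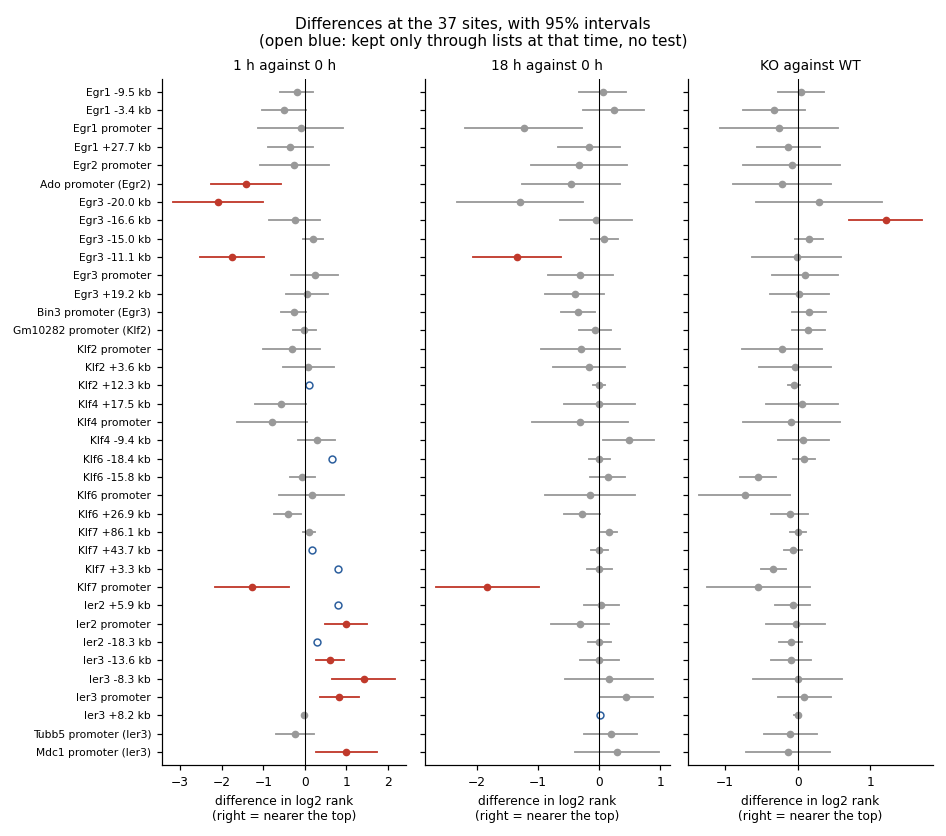
Log2 rank differences of the 37 sites (points) with 95% intervals (bars) for 1 h and 18 h of LPS and for KO minus WT, red where called. Open blue points, with no interval, are sites kept only through lists at that time, which have no test. At 1 h 5 sites lie above 0 and 4 below it in red, at 18 h 2 lie below it, and between genotypes 1 lies above it.

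Several promoter sites were broad and held more than 1 summit, so the fit was repeated on fixed 0.5-kb windows (501 bp) around summits, a choice made after the data were seen. Here summits rather than peaks were ranked, with a cap of 26558. Of 64 windows near the 9 genes, 17 were called at 1 h (13 higher, 4 lower), where 27.6% of all windows were. Of the 13, 5 met the minimum of 2 lists only through lists at 1 h. At 18 h, 11 were called (3 higher, 8 lower), where 22.3% were. Without KO 18 h replicate 1 the counts were 18 and 11, where 33.1% and 26.0% of all windows were called. With depth as a covariate they were 12 and 10, where 15.9% and 21.8% were, and 6 of the 12 were kept only through 1 h lists.

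The Egr3 promoter changed in both directions once its summits were parted. The strongest summit of the site lay at -309 to -346 bp from the gene start in all 5 lists at 1 h and at -2257 to -2648 bp in the other 12 lists. The promoter window at -0.3 kb ranked 13794, 14702.5 and 13392 in WT and 11410, 9036 and 5909 in KO without LPS. It ranked 4036.5 and 5556 in WT and 6821, 4600.5 and 5012 in KO at 1 h, and 33663, 34891.5 and 31541 in WT and 20402, 15662 and 32779 in KO at 18 h. Only KO 0 h replicate 3 reached the 1 h range, and every 18 h list lay below every untreated list. The Egr3 difference was 1.11 (SE 0.21, adjusted p = 0.00088) at 1 h and -1.10 (SE 0.20, adjusted p = 0.00077) at 18 h. With depth as a covariate it was 0.69 (adjusted p = 0.043) and -1.17 (adjusted p = 0.00012).

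The Egr3 -2.3 kb summit did not pass, at -0.36 (-1.01 to 0.30) at 1 h and -0.44 (-1.06 to 0.18) at 18 h. Within a list, where depth is shared, the reads at the Egr3 promoter summit were 1.03 to 1.40 times those at the -2.3 kb summit in the 5 lists at 1 h. The ratio was 0.509 to 0.578 in WT and 0.607 to 0.900 in KO untreated lists, and 0.257 to 0.353 in WT lists at 18 h. In KO lists at 18 h it was 0.900 in replicate 1, which rests on 9 and 10 reads, and 0.423 and 0.250 in replicates 2 and 3. The ratio was thus above 1 at 1 h alone.

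The Ier2 promoter window rose by 1.03 (SE 0.24, adjusted p = 0.0044) at 1 h and was lower by -0.69 (SE 0.23, adjusted p = 0.039) at 18 h, or by -0.67 (adjusted p = 0.051) with depth as a covariate. Its ranks were 3376, 3796 and 3765.5 in WT and 4392, 5017 and 3172.5 in KO untreated lists, and 6632.5, 5033.5 and 6419 in WT and 7693, 5577 and 6413 in KO lists at 18 h. These groups did not overlap. At the Ier2 summit 1.1 kb into the gene the values were -0.47 (-0.95 to 0.02) at 1 h and -0.68 (SE 0.22, adjusted p = 0.031) at 18 h. The reads at the Ier2 promoter summit were 1.59 to 1.80 times those at +1.1 kb at 1 h and 0.895 to 1.35 times in the other 12 lists.

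The Ier3 promoter window rose at both times, by 1.10 (SE 0.21, adjusted p = 0.00073) at 1 h and 0.66 (SE 0.19, adjusted p = 0.020) at 18 h. The Flot1 promoter window inside the same site differed by 0.46 (-0.34 to 1.26) and -0.23 (-0.98 to 0.53). Within a list, the reads at the Ier3 promoter were 0.879 to 1.01 times those at the Flot1 promoter in WT and 0.692 to 0.893 times in KO untreated lists. The Ier3 to Flot1 ratio at 1 h was 1.00 and 0.873 in WT, within or below the untreated range, and 1.02 to 2.00 in KO. At 18 h it was 1.10 to 1.42 in WT, 1.53 and 1.88 in KO replicates 2 and 3, and 0.769 in KO replicate 1. The reads thus did not part 1 h from untreated WT lists, while the ranks did. The Ier3 window ranked 7437, 8179.5 and 5794 in WT and 8481.5, 10242 and 8871 in KO without LPS, 3419 and 5105 in WT and 3399.5, 3348.5 and 3367 in KO at 1 h, and 4819, 5514 and 4274 in WT and 5620.5, 5138.5 and 5268 in KO at 18 h. All treated Ier3 lists stood above all untreated ones.

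The Klf6 gene had windows called at 18 h. The +9.2 kb summit just past the gene's end ranked 11485, 11886 and 10576.5 in WT and 14168.5, 12576.5 and 9651.5 in KO without LPS, and 4628.5, 6370.5 and 6587.5 in WT and 7693, 6059 and 4376.5 in KO at 18 h. All 18 h lists stood above all untreated ones, with 1 h lists between 5685.5 and 13589.5 across that range. The Klf6 +9.2 kb difference was 0.39 (-0.12 to 0.89, adjusted p = 0.25) at 1 h and 0.99 (SE 0.23, adjusted p = 0.0042) at 18 h. The neighboring Klf6 +10.1 kb summit differed by -0.28 (-0.87 to 0.31) and -0.43 (-0.99 to 0.13). The read ratio of +9.2 kb to +10.1 kb was 0.482 to 0.636 in untreated lists and 0.800 to 1.21 at 18 h. At 1 h it was 0.825 to 1.00 in 4 lists, already in the 18 h range, and 0.438 in WT replicate 1-2, which rests on 7 and 16 reads. Inside Klf6, the +4.8 kb window rose by 0.91 (SE 0.18, adjusted p = 0.0015) at 1 h and the +3.1 kb window by 0.77 (SE 0.15, adjusted p = 0.0014) at 18 h.

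The remaining called windows were small or matched their sites. A window 539 bp past the nearest annotated Egr2 start, with an NF-kB motif, was inside the cap in the 5 lists at 1 h and in no other, so its difference of 0.41 has no test. A window 617 bp past another annotated Egr2 start fell by 0.50 (SE 0.15, adjusted p = 0.026) at 18 h. The Klf4 window 2.1 kb into the gene fell by 0.42 (SE 0.14, adjusted p = 0.037) at 1 h and by 0.62 (SE 0.14, adjusted p = 0.0031) at 18 h. The Klf7 window 151 bp past the nearest annotated start rose by 0.70 (SE 0.19, adjusted p = 0.011) at 1 h, opposite to the main Klf7 promoter summit, though it was not called with depth as a covariate (0.48, adjusted p = 0.19). Without KO 18 h replicate 1 the 8 windows named here for 18 h were all still called (adjusted p up to 0.043).

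**Figure D4:**
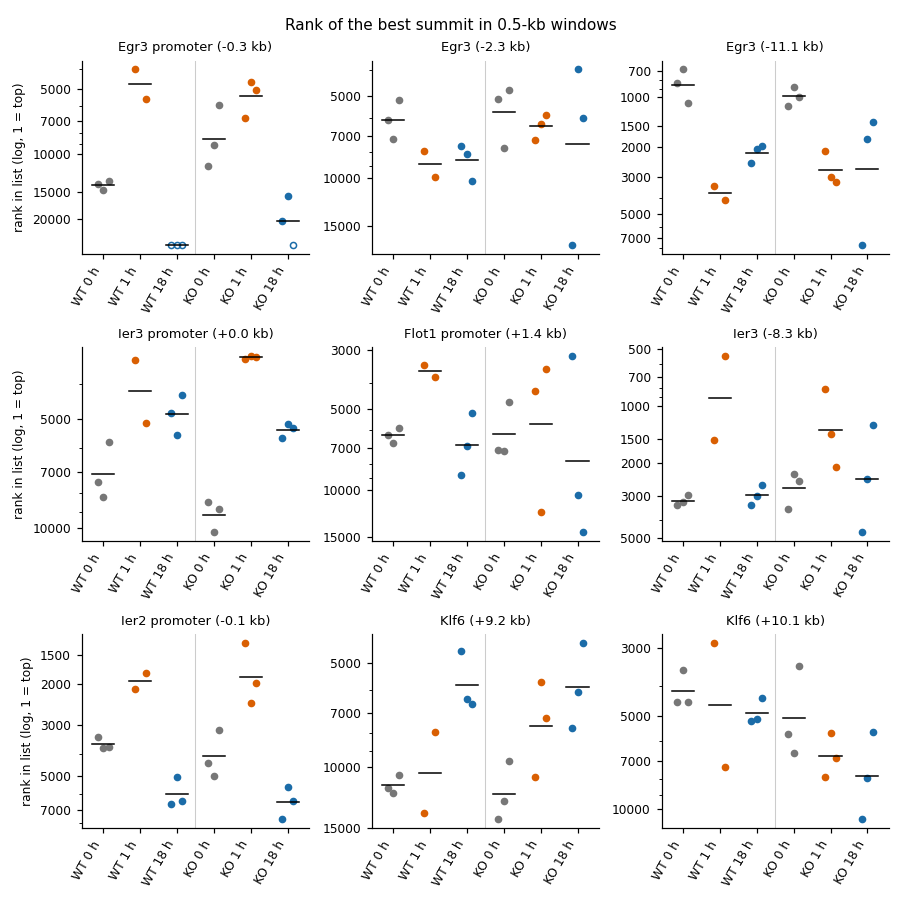
Rank in every list (log axis, rank 1 at the top) of 9 summit windows at Egr3, Ier3, Ier2 and Klf6, by genotype and hours of LPS. The Egr3 promoter window is highest at 1 h and lowest at 18 h, and the Klf6 +9.2 kb window is highest at 18 h.

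**Figure D5:**
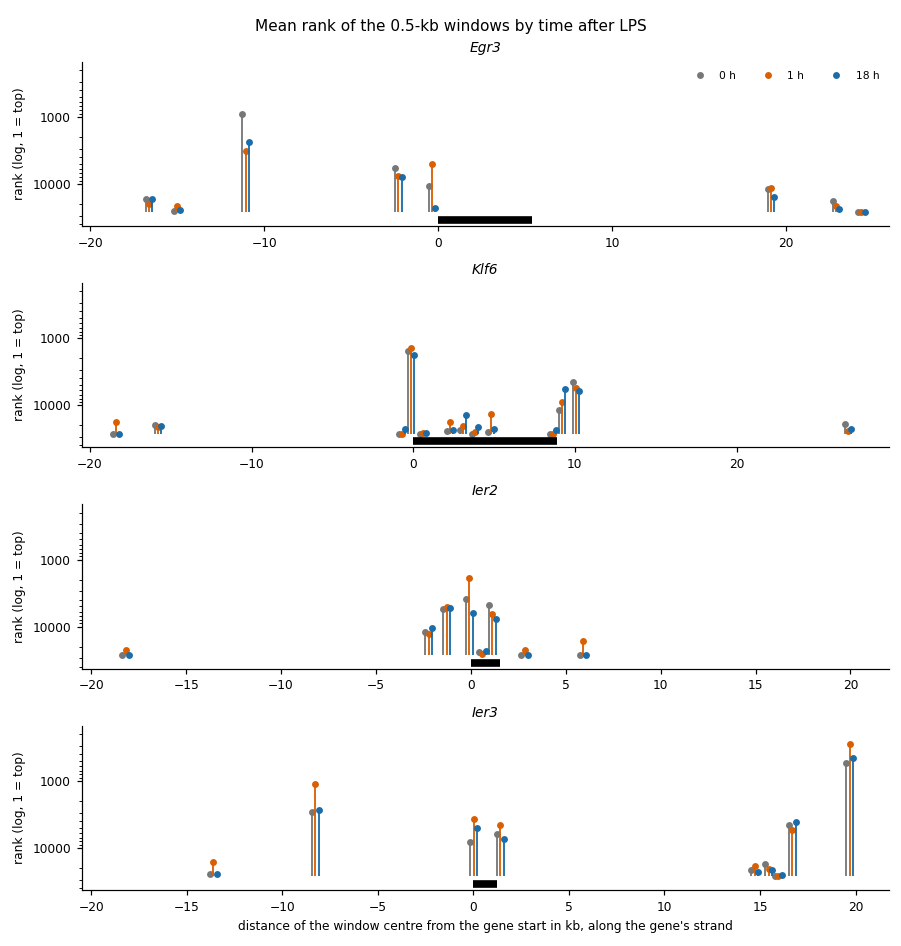
Mean rank (log axis) of each summit window at 0, 1 and 18 h against distance from the gene start in kb for Egr3, Klf6, Ier2 and Ier3, with the gene body as a black bar. The Egr3 promoter and -11.1 kb windows move in opposite directions at 1 h, and at Ier2 the promoter window stands out at 1 h.

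Between genotypes, 1 of the 37 sites was called over the 3 times, against 0.395% of all sites. It was the Egr3 -16.6 kb site (chr14:70060102-70061137, intergenic). Of the 64 windows, 1 passed, against 0.406% of all windows, and it lay in this site. That window was inside the window cap in 8 lists, all KO. It met the list minimum only through KO lists and so had to differ, which leaves it with no test. How many windows over all share this was not counted. KO ranks of the site were 9645.5, 6892 and 11660 at 0 h, 12213.5, 9346 and 18910.5 at 1 h, and 28007, 6804 and 5702.5 at 18 h. WT ranks were 53671.5, 38595.5 and 53730.5 at 0 h and 29105.5, 24264 and 24298 at 18 h, and neither WT list had a peak at 1 h. Of these WT ranks, only 24264 and 24298 were inside the cap, by a small margin. Without them the site too would have met the list minimum only through KO lists. Every KO list except KO 18 h replicate 1 stood above every WT list. The Egr3 -16.6 kb difference was 1.21 (SE 0.24, adjusted p = 0.026), or 1.43 (SE 0.14, adjusted p = 6.2e-05) without that list. The call was lost when any 1 of 11 other lists was left out (adjusted p up to 0.080) and under 6 of 9 alternatives. These were depth as a covariate (1.19, adjusted p = 0.15), the replicate block (adjusted p = 0.097), no trend (adjusted p = 0.065), the 50% overlap (1.06, adjusted p = 0.051), the cap of 10000 (0.23, adjusted p = 1) and an exact permutation test within times (adjusted p = 0.29). Over all sites, that cap called 11 higher and 18 lower, and the permutation test called 0. The call was kept with relative ranks, with array weights and for sites in at least 3 lists. It was also lost where sites of a single list were kept, a setting outside the 9. The KO lists were on the whole the shallower ones, and the part of depth in this difference was tested by that covariate alone.

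Among the promoters, the widest genotype difference was at Klf6, -0.73 (-1.36 to -0.10, adjusted p = 0.44), and then Klf7, -0.54 (-1.25 to 0.17). The other 7 lay between -0.26 and 0.10, with intervals that reached no further than -1.07 and 0.59. The Klf6 -15.8 kb site differed by -0.55 (-0.80 to -0.30, adjusted p = 0.051), and by -0.57 (adjusted p = 0.033) without KO 18 h replicate 1.

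No site near the 9 genes was called for a different LPS response in KO, either at 1 h, where 0.0966% of all sites were, or at 18 h, where 0.00586% were. In each case 2 of 37 (5.41%) had an unadjusted p under 0.05, as had 6.91% of all sites at 1 h and 6.35% at 18 h. The exact permutation test called 0 of all 34155 sites in both cases. With a smallest p of 0.005, adjusted over so many sites, it could hardly call any, so it does not bear on the question. With the replicate block a site was called at 1 h, where 4 of all sites were called higher and 119 lower. Leaving out single lists in turn gave 0 to 2 calls at 1 h. At the Klf7 +3.3 kb site, which has no test because it was kept only through 1 h lists, the 1 h differences were 1.30 in WT and 0.30 in KO. All 3 KO lists ranked below both WT lists there. The WT lists at 1 h had 0.382 and 1.61 reads per kb and the KO lists 0.593 to 4.14.

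Of 22 related genes (other Egr, Klf and Ier genes, the Egr corepressors Nab1 and Nab2, and Srf with its Elk partners), 16 had a promoter site. At 1 h, 1 was called higher, Elk3 (0.83, adjusted p = 0.00033), and 8 lower, where 5.85% and 17.8% of promoter sites of all genes were. The lower ones were Klf1 (-0.73), Klf3 (-1.16), Klf10 (-1.16), Klf11 (-1.84), Klf16 (-1.50), Ier5l (-0.88), Nab2 (-1.57) and Srf (-1.06), with adjusted p from 0.00078 to 0.045. The median of the 16 was -0.83 against -0.25 over promoter sites of all genes. At 18 h, Klf3 (-1.15), Klf9 (-1.02) and Ier5l (-2.15) were called lower and none higher, where 12.9% and 5.02% were, with a median of -0.46 against -0.13. None of the 16 was called between genotypes. The promoters whose ranks tracked that of Klf7 most closely over the 17 lists were those of Setd7 (r = 0.91), Gpx1 (r = 0.90) and Igf1r (r = 0.89), and 20.6% of 11044 promoter sites had r above 0.5. The lists share depth, so these r are given as a description.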

How the data were processed

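ATAC-seq libraries of 17 BMDM samples in 6 groups were deposited as 1 peak list per sample. Per the labels and the study's methods, the authors tagmented nuclei with a custom Tn5, sequenced paired ends on a NextSeq 500, trimmed with cutadapt 2.6 and used mm10 and DiffBind 3.0.15. The peak names record a mapping-quality filter, removal of mitochondrial and duplicate reads and a q-value threshold of 0.001. Peaks were called per sample, and the peak caller is not given in the sources used here. The deposited columns hold each peak's fold over background (a ratio), its −log10 p-value, its −log10 q-value and other fields such as its summit offset. No table of read counts per sample over shared sites was used, so the study's DiffBind test was not refitted.

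Entries that repeat an interval for several summits (1001519 in all) were joined, keeping the best. The fold and −log10 p columns together gave whole summit reads and each list's background, with all entries matching (tolerance 0.05 reads, or 0.05% above 100 reads). The lowest summit reads were 3 to 10 per list, which limits the ranks of weak peaks. Intervals within the top 24389 of each list that overlapped by at least 1 bp were merged, and sites in at least 2 lists were kept. Log2 ranks were fitted with limma 3.58.1 (R 4.3.3; lmFit, then eBayes with trend and robust) over 34155 sites in 6 groups, with Benjamini-Hochberg adjustment. Contrasts averaged the genotypes or the times with equal weight, and 95% intervals come from the same fit. The scripts were tested on simulated ranks. Tables and figures used Python 3.11.15, pandas 2.3.3, numpy 2.4.6, scipy 1.17.1 and matplotlib 3.10.9.

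All 9 genes and their promoters are named, with the distal sites called in any of 5 contrasts and the best-ranked distal site of each gene. The genes and lists were chosen with earlier results of these data known. Alternatives were another rank cap, ranks relative to list length, a 50% overlap, other list minimums, array weights, depth as a covariate, a replicate block, no trend, exact permutation and leaving out each list. The 0.5-kb windows were added after the data were seen. Sequences and motifs were read from the GRCm38 genome, on both strands. Some sequences are not reported here. Of the 9 genes, 6 had an entry in the RefSeq promoter table, and Egr1, Egr3 and Ier2 did not. A further 46 weaker elements near the genes, each outside the tested sites, were only counted.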

Additional observations from a re-analysis of the deposited data

Results flagged for a closer look

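At 4 sites every WT list moved one way from the untreated mean and every KO list the other, although the test of the difference did not pass. They were 2 of 37 at each time (5.41%), where 2.83% of all sites showed this at 1 h and 1.92% at 18 h. The Egr1 promoter moved by -1.08 in WT and 0.87 in KO at 1 h, a difference of 1.94 (adjusted p = 0.74 in limma). The Egr3 -15.0 kb site moved by -0.27 and 0.67 at 1 h, a difference of 0.94 (adjusted p = 0.16). At 18 h, the Klf6 -15.8 kb site moved by 0.44 and -0.17, a difference of -0.61 (adjusted p = 0.77), and the Mdc1 promoter beside Ier3 by -0.80 and 1.37, a difference of 2.16 (adjusted p = 0.52).

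Among the weaker elements outside the tested sites, 2 had a peak in 4 of the 5 lists at 1 h and in none of the 6 untreated lists. They were picked for this pattern from 46 such elements (4.35%), and over the genome 315 of 66397 elements outside tested sites (0.474%) had a peak in at least 4 lists at 1 h and in no untreated list. The 2 near these genes lay 11787 bp past the start of Klf6 (chr13:5872438-5874101) and 70901 bp past the start of Klf7, inside that gene (chr1:64051082-64051680). The Klf6 element also had a peak in 2 lists at 18 h, the Klf7 element in none. Their best ranks were 19586 and 22863.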

How the results depend on the processing

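The counts of called sites moved with the rank cap, the overlap rule, depth and the unit of a site. Under a cap of 10000, where 48.2% of all sites were at the cap in every list, 0 sites were called at 1 h, at 18 h and between genotypes. Over all 34155 sites that cap called 715 higher and 221 lower at 1 h. It called 143 and 160 at 18 h, and 11 and 18 between genotypes. A peak covering at least 50% of the site gave 8 at 1 h and 1 at 18 h. Over all sites it called 1567 higher and 5024 lower at 1 h, and 1207 and 2725 at 18 h. Depth as a covariate gave 8 at 1 h, where 16.7% of all sites were called. Between genotypes it gave 0, where 22 of all sites were called higher and 43 lower. At 18 h, relative ranks gave 5, where 29.2% of all sites were called. Array weights gave 6 (5523 higher and 5430 lower over all sites) and no trend 4 (3464 and 4348). The exact permutation test gave 1 at 18 h, where 5101 of all sites were called (smallest p it allows, 0.005). The 0.5-kb windows gave 11 (22.3% of all windows), 10 with depth (21.8%) and 11 without the narrow-peak list (26.0%). Between genotypes, keeping sites of a single list gave 0, where 64 of 41247 sites were called higher and 163 lower. The exact permutation test called 0 of all sites (smallest p 0.00025). The windows with depth gave 0, where 19 of 37708 windows were called higher and 52 lower. A distance of 10 kb in place of 20 kb left 21 of 37 sites. Leaving out each list gave 10 to 16 calls at 1 h, 2 to 5 at 18 h, 0 to 3 between genotypes, and 0 to 2 and 0 to 0 for the difference in response at 1 h and 18 h. The causes were not tested.

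Relative ranks, which divide by list length, moved the median of all sites by -0.54 at 1 h, -0.40 at 18 h, -0.27 between genotypes and 1.17 for the response difference at 1 h. They changed the split of all calls at 1 h from 4722 higher and 4895 lower to 2650 and 10621, and that of the 37 sites from 9 and 4 to 3 and 7. Directions flipped mostly at promoters with small differences. With relative ranks, the 1 h value was -0.18 at Egr3 and -0.26 at Klf6, and the genotype value -0.15 at Egr3 and -0.16 at Ier3. With the 50% overlap, 1 h values were -0.82 at Egr3, -0.53 at Klf6, -0.96 at Ier2, -0.38 at Ier3, -0.66 at Mdc1 and -0.045 at the Ier3 -13.6 kb site, and genotype values 0.039 at Egr1, -0.22 at Egr3 and -0.38 at Ier3. Array weights gave 0.11 at Klf6 at 18 h, and genotype values of 0.10 at Egr2, 0.054 at Klf4, 0.046 at Ier2 and -0.0038 at Ier3. The genotype value was 0.0052 at Egr2 with the cap of 10000 and 0.0045 at Ier2 with depth. In the windows, Ier3 was -0.069 between genotypes, -0.089 with depth and -0.057 without the narrow-peak list. Without that list the windows also gave 0.072 at Egr2, 0.11 at Klf4 and 0.098 at Klf6 at 18 h, and 0.19 at Egr2 and 0.20 at Klf4 between genotypes.

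Leaving out single lists flipped these promoter differences. At 1 h these ranged from -0.40 to 0.10 at Egr1, -0.55 to 0.051 at Egr2 and -0.13 to 0.45 at Klf6. At 18 h they ranged from -0.59 to 0.091 at Egr2, -0.46 to 0.0026 at Klf2, -0.63 to 0.13 at Klf4 and -0.39 to 0.12 at Klf6. Between genotypes they ranged from -0.28 to 0.20 at Egr2, -0.020 to 0.24 at Egr3, -0.30 to 0.20 at Klf4 and -0.11 to 0.031 at Ier2.

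The shared replicate numbers were not shown to pair the samples: deviations from the group means correlated between -0.23 and 0.21 for lists with the same number. With the replicate number as a block, 9, 2 and 1 sites were called at 1 h, 18 h and between genotypes, and 1 and 0 for the response differences at 1 h and 18 h. Of all sites, the block called 20.7% at 1 h and 23.3% at 18 h. Between genotypes it called 28 of all sites higher and 146 lower. For the response difference at 1 h these numbers were 4 and 119. The block kept 7 of the 13 calls at 1 h, lost 6 (the Klf7 and Ier3 promoters, Ado, Mdc1, Egr3 -20.0 kb and Ier2 -18.3 kb) and gained 2. Of the 7 kept, 3 were sites kept in the table only through 1 h lists (Klf6 -18.4 kb, Klf7 +3.3 kb and Ier2 +5.9 kb), and so were the 2 gained. It kept both calls at 18 h, lost the Egr3 -16.6 kb call between genotypes and gained Klf2 +12.3 kb, a site inside the cap in 2 lists, both at 1 h. Of 9 alternatives and 17 lists left out, the Egr3 -11.1 kb calls were lost under the cap of 10000 and with the 50% overlap.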
